A study of Mus musculus with 17 samples.

Results

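Class 3 semaphorins are secreted guidance proteins, and 10 genes of this system were described in the infarcted mouse heart, chosen by symbol from the 31647 features of the count table. They comprise 6 ligands, Sema3a, Sema3b, Sema3c, Sema3d, Sema3f and Sema3g, the co-receptor gene Nrp2, and 3 signalling receptors, Plxna1, Plxna2 and Plxnd1. All 10 had a feature of their own. The animals were male wild type C57BL/6J mice aged 8 to 11 weeks. Both groups carried no transgene, no deletion and no drug treatment that the labels name. The left ventricle was taken from 8 mice after a sham operation, and the infarct zone (IZ) from 9 mice after ligation of the left anterior descending artery, in each case 5 days after surgery. Operation and tissue region therefore changed together and cannot be told apart. Transcripts were counted by MACE (massive analysis of cDNA ends), in which each molecule is read once near its 3' end, so that counts of different genes may be set side by side without a correction for length.

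A class 3 semaphorin usually does not bind its plexin alone. It is held by a neuropilin, which has a short cytoplasmic tail, and the neuropilin brings it to an A-type plexin or to plexin D1, whose intracellular domain acts on small GTPases and thereby on the actin skeleton and integrins. In the cardiovascular system the family is known from the patterning of vessels, from the septation of the outflow tract and from the guidance of sympathetic nerves into the ventricular wall.

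Several of the genes share a chromosome. On mm10, with gene bounds from GENCODE, Sema3d (chr5:12383385-12588948), Sema3a (chr5:13125414-13602565) and Sema3c (chr5:17574281-17730268) lie on the plus strand of chromosome 5. Sema3b (chr9:107597674-107609229) and Sema3f (chr9:107681500-107710475) are neighbours on the minus strand of chromosome 9, with 72270 bases between them. Sema3g lies on chromosome 14 (chr14:31217860-31230352, plus strand). Among the receptors, Nrp2 (chr1:62703285-62818695) and Plxna2 (chr1:194618218-194816869) are on the plus strand of chromosome 1, and Plxna1 (chr6:89316314-89362620) and Plxnd1 (chr6:115954811-115995005) on the minus strand of chromosome 6. All 10 are annotated as protein coding.

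Promoter windows of 300 bases (250 before and 50 after the start) from RefSeq on GRCm38.p6 were matched for 7 of the 10 genes, not for Sema3b, Sema3f and Plxna1. The windows of 4 genes are printed, because these are a ligand and a receptor for each direction. Sema3d and Nrp2 had more transcripts in the IZ. Plxna2 and Sema3g had fewer in the libraries scaled by TMM, but not with total counts alone. They lie at chr5:12382916-12383215 for Sema3d, chr1:62703067-62703366 for Nrp2, chr1:194619579-194619878 for Plxna2 and chr14:31217623-31217922 for Sema3g, all on the plus strand. Capitals mark every match to a GC box (GGGCGG, or CCGCCC on the other strand) and to a CCAAT box (CCAAT, or ATTGG on the other strand).
Sema3d: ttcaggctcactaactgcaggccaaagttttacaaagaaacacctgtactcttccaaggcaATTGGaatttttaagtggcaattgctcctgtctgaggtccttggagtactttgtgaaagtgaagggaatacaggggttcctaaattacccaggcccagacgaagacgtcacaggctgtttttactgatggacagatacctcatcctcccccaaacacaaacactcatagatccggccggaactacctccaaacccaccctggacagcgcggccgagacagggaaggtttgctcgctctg
Nrp2: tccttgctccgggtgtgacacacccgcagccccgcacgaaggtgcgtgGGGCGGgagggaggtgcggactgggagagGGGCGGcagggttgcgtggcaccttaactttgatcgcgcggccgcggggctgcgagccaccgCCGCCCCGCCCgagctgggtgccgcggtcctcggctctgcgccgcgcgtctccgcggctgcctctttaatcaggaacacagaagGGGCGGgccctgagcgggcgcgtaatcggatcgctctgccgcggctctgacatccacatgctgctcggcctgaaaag
Plxna2: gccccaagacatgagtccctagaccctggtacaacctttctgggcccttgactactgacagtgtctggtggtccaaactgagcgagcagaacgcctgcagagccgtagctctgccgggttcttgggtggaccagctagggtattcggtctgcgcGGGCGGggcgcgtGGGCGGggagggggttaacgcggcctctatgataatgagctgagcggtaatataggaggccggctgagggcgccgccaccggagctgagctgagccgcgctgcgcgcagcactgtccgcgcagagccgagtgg
Sema3g: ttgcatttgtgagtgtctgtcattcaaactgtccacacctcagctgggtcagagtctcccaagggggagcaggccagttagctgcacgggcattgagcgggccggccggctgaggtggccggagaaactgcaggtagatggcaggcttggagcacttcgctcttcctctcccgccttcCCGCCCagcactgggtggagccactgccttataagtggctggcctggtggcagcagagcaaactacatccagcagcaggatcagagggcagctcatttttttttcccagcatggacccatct
The Nrp2 window held 5 GC boxes, some of which share a base, that of Plxna2 2, that of Sema3g 1 and that of Sema3d 0. The Sema3d window held the CCAAT box instead. Over all 32851 windows of this length, 35.7% held a GC box and 37.4% a CCAAT box, so that neither is rare. GC content was 49.7% in the Sema3d window, 70.7% in that of Nrp2, 64.7% in that of Plxna2 and 58.7% in that of Sema3g, with a median of 52.7% over all windows. The letters TATAAA (13.6% of all windows), TGANTCA (7.81%), GGAATG (14.7%) and ACGTG (19.6%) were searched as well on both strands, and of the 7 windows only that of Plxnd1 held GGAATG and only that of Sema3c held ACGTG.

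The libraries held 1237675 to 4738307 counts. The labelled tissue was checked by marker genes, which were present in both groups, with 8 of 8 cardiomyocyte markers lower and 7 of 7 tested macrophage markers and 7 of 8 fibroblast markers higher in the IZ. IZ replicate 1 stood apart. Its summed cardiomyocyte markers reached 26746 CPM (the count divided by the TMM-scaled size of its library), against 2725 to 6409 CPM in the other IZ libraries and 59576 to 71588 CPM in sham, and its mitochondrially encoded share was 19.5%, against 4.22% to 6.78% in the others and 22.9% to 32.4% in sham. Replicate numbers follow the labels. By the study's text, the IZ samples came from mice chosen at random among those with a ligation, and the sham samples from all sham-operated mice. The labels do not say more of the separate samples than their number, and p-values measure the spread between these samples.

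Of the 10 genes, 9 passed the filter on low counts, all but Sema3a. In the quasi-likelihood test of edgeR, adjusted by Benjamini-Hochberg over all 12301 tested genes, 4 were higher in the IZ (Sema3d, Sema3f, Nrp2 and Plxna1), and 4 were lower with the scaled libraries but not with total counts alone (Sema3b, Sema3c, Sema3g and Plxna2). Calls were frequent in this comparison, 69.5% of all tested genes in either direction, 36.3% higher and 33.1% lower. The count of 8 among 9, like each count of calls in a list of genes or markers, is read against that background. The median log2 fold change was 0.39 over the 9 genes and 0.05 over all tested genes. The groups did not overlap for 1 of the 9, Plxna1, while 33.1% of all tested genes had groups that did not overlap. With total counts alone the median of all genes moved up by 1.09 on the log2 scale, and Sema3b came to a log2 fold change of -0.017, Sema3c to 0.48, Sema3g to 0.33 and Plxna2 to 0.17, none past the threshold and all 4 under the median gene. Fold changes refer to the scaled libraries unless total counts are named. In bulk tissue, fewer cells of a type and less RNA per cell cannot be told apart.

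**Figure D1:**
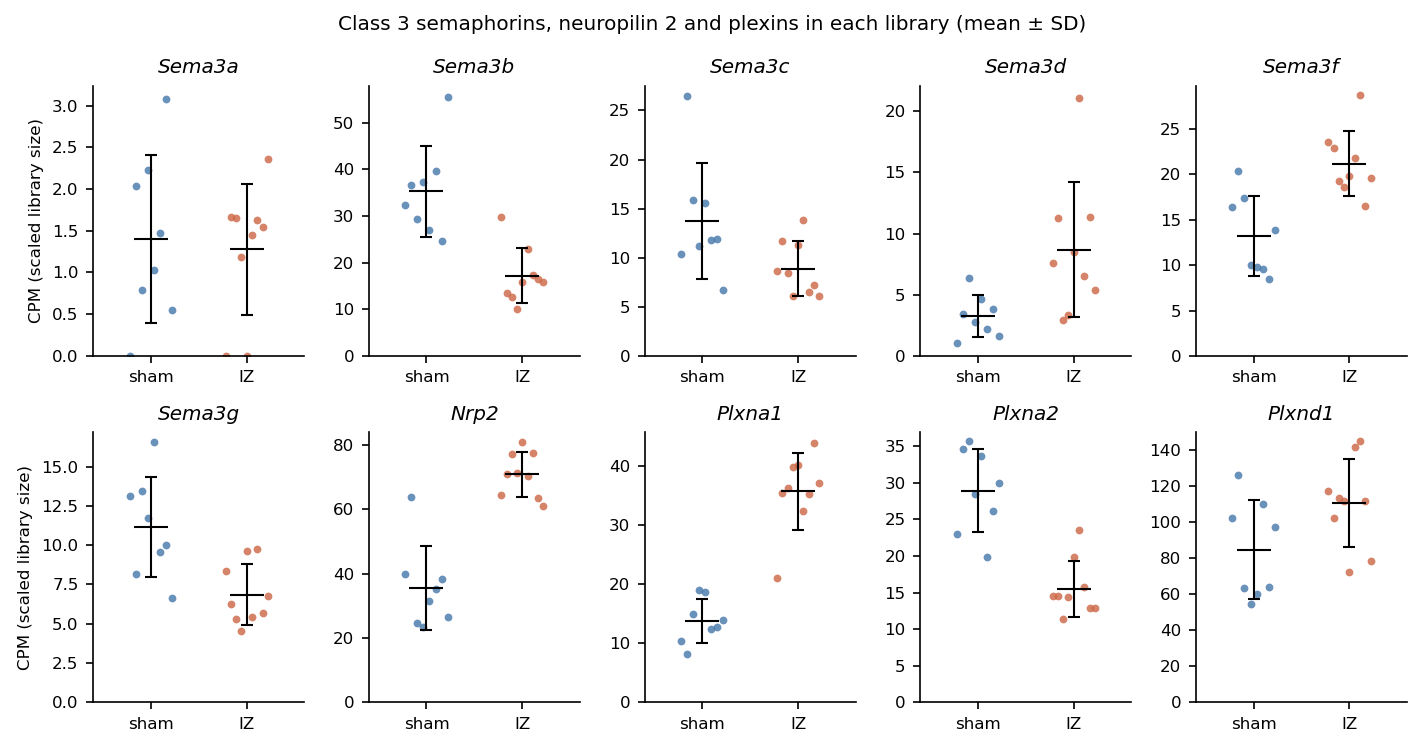
CPM of the 10 genes (y axis, from 0, its own range in each panel) in each of the 8 sham and 9 IZ libraries, 1 point per library, with the mean and SD of each group in black. For Plxna1 the IZ libraries start at 21.0 CPM, above the sham maximum of 19.0 CPM, and for the other 9 genes the groups overlap. The lower levels of Sema3b, Sema3c, Sema3g and Plxna2 hold for these scaled libraries and not with total counts alone.

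Among the ligands, Sema3b, which is also known as a gene of the tumour suppressor region of human chromosome 3p, was the most abundant in sham. Its levels ran from 24.7 to 55.5 CPM in sham with a median of 34.5, and from 10.1 to 29.7 CPM in the IZ with a median of 15.9. All IZ libraries except replicate 1 lay below every sham library. The means were 35.3 ± 9.74 CPM (SD, n = 8) in sham and 17.1 ± 5.90 CPM (SD, n = 9) in the IZ, a log2 fold change of -1.06 ± 0.20 (SE, adjusted p = 4.4e-05, edgeR). The library with the highest Sema3b in the IZ, replicate 1, was also the one that stood apart in cardiomyocyte markers. The other IZ libraries did not follow these markers closely. Replicate 6, next in Sema3b at 22.9 CPM, had 4350 CPM of them, and replicate 5, with 6409 CPM of them, had 15.9 CPM of Sema3b. Without replicate 1 the IZ spanned 10.1 to 22.9 CPM around 15.6 ± 3.80 CPM (SD, n = 8). After the group means were subtracted, the genes whose log2 CPM was most like that of Sema3b over the 17 libraries were Rom1 (Pearson's r = 0.91), Unc45b (0.89) and Jph2 (0.88), out of 9355 genes searched. The highest of so many correlations can be large through the search alone, and neither these nor those given for other genes were tested. Unc45b and Jph2 encode a myosin chaperone of striated muscle and a junctional membrane protein of cardiomyocytes. All these levels share library depth and composition, and the part of the cardiomyocyte markers in the Sema3b difference was not tested.

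Sema3f, a ligand known for its preference for neuropilin 2, moved the other way from its chromosomal neighbour. Its levels were 8.47 to 20.4 CPM in sham with a median of 12.0, and 16.5 to 28.7 CPM in the IZ with a median of 19.8. Sham replicates 1, 2 and 3 were the high sham libraries, and 2 of these (replicates 2 and 3) reached into the IZ range. The means were 13.2 ± 4.42 CPM (SD, n = 8) and 21.2 ± 3.58 CPM (SD, n = 9), and the log2 fold change was 0.70 ± 0.17 (SE, adjusted p = 0.0012, edgeR). The log2 ratio of Sema3f to Sema3b counts within a library, looked at after these values were seen and therefore given without a test, ran from -2.01 to -0.74 in sham and from -0.33 to 0.88 in the IZ. The ratio is free of library scaling, and no IZ library reached down to the sham range. The genes most like Sema3f were Ccnl2 (r = 0.93), Ikbkb (0.87) and Tcf3 (0.86).

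Sema3d, a ligand known to repel endothelial cells during the patterning of the pulmonary veins, was scarce, with 2 to 10 counts in each sham library and 12 to 81 in each IZ library. It ran from 1.09 to 6.33 CPM in sham with a median of 3.09, and from 2.97 to 21.1 CPM in the IZ with a median of 7.61. IZ replicate 6 was far above the others, and 6 of the 9 IZ libraries exceeded every sham library while IZ replicates 3, 4 and 9 lay inside the sham range. The means were 3.25 ± 1.70 CPM (SD, n = 8) and 8.67 ± 5.53 CPM (SD, n = 9), a 2.62-fold difference (log2 1.39 ± 0.40, SE, adjusted p = 0.0038, edgeR). Its coefficient of variation in the IZ, 63.8%, was the highest among the 9 genes tested. The mesothelium that covers the heart is a tissue in which Sema3d is known, so its markers were read beside it. Summed over 7 mesothelial markers, the level was 8.36 to 21.0 CPM in sham and 10.5 to 139 CPM in the IZ. Of these markers 2 could be tested, with Msln higher in the IZ (log2 2.22) and Wt1 at log2 0.03, not called. The highest sums were in IZ replicates 2 (139 CPM) and 6 (79.2 CPM), which had 11.3 and 21.1 CPM of Sema3d, and next came replicate 3 (34.1 CPM), which had 2.97 CPM, the lowest Sema3d of the IZ. Replicate 8, with 15.0 CPM of the markers, had 11.4 CPM of Sema3d. The part of these cells in the Sema3d difference was not tested.

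**Figure D2:**
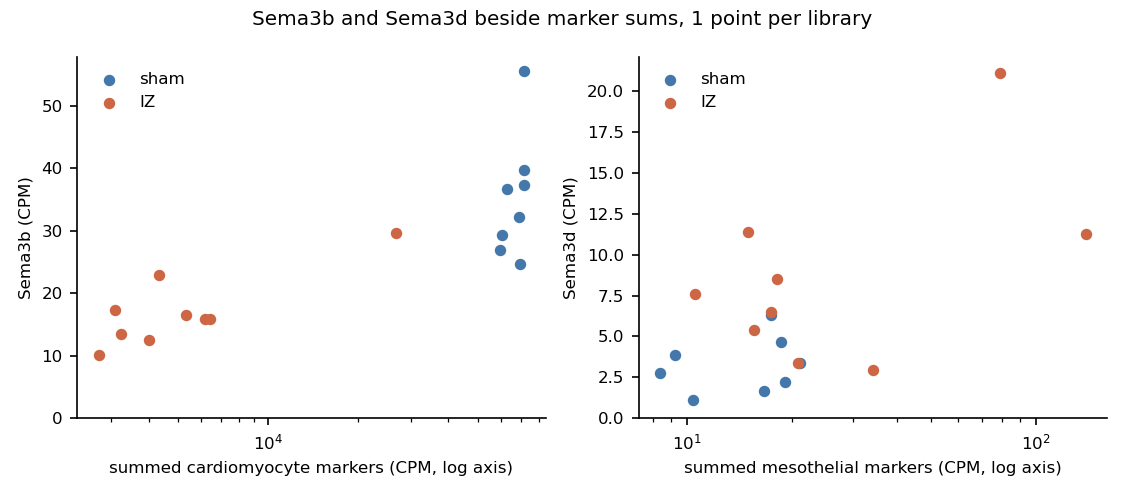
Level of Sema3b against the summed cardiomyocyte markers (left) and of Sema3d against the summed mesothelial markers (right), CPM on all axes, log scale on the x axes, 1 point per library (8 sham, 9 IZ). IZ replicate 1, at 26746 CPM of cardiomyocyte markers, lies between the other IZ libraries and sham in these markers. Its 29.7 CPM of Sema3b lies within the sham range. The Sema3d maximum of 21.1 CPM belongs to a library with 79.2 CPM of mesothelial markers.

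Sema3g, a ligand of endothelial cells that signals through neuropilin 2, had 6.67 to 16.6 CPM in sham with a median of 10.9, and 4.55 to 9.76 CPM in the IZ with a median of 6.26. Sham replicates 8, 2 and 6 were the lowest of their group and lay within the IZ range, and 5 of 9 IZ libraries fell below every sham library. The means were 11.2 ± 3.2 CPM (SD, n = 8) and 6.86 ± 1.93 CPM (SD, n = 9), a log2 fold change of -0.75 ± 0.21 (SE, adjusted p = 0.0029, edgeR). The summed level of 8 pan-endothelial markers was 445 to 804 CPM in sham and 396 to 632 CPM in the IZ, with 1 marker called lower (Egfl7, log2 -0.66), none called higher and Erg the highest at log2 0.11. With total counts alone all 8 were called higher, Egfl7 included (log2 0.40), which is why the ratio within a library is given. Set against that sum within each library, Sema3g had a mean log2 ratio of -5.71 in sham and -6.14 in the IZ. The difference of -0.43 did not pass the exact two-sided permutation test (p = 0.0928, adjusted p = 0.113 over 11 such values). Of the 6 tested arterial markers 2 were higher, among them Gja5 at log2 1.03, and 2 lower, among them Dll4 at log2 -0.99, while with total counts alone 4 were higher and 0 lower (Dll4 at 0.09). The genes most like Sema3g were Rbfox2 (r = 0.77), Taf6 (0.77) and Zmym4 (0.76).

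Sema3c, a ligand required for the septation of the outflow tract, gave the least secure call. Sham libraries ran from 6.67 to 26.5 CPM with a median of 11.9, and IZ libraries from 6.08 to 13.8 CPM with a median of 8.41. Sham replicate 2 was far above the other sham libraries and replicate 8 was among the low IZ values. The means were 13.7 ± 5.91 CPM (SD, n = 8) and 8.87 ± 2.78 CPM (SD, n = 9), with a log2 fold change of -0.60 ± 0.23 (SE, adjusted p = 0.026, edgeR). Without sham replicate 2 the log2 fold change was -0.42 and the call was lost, as it was without IZ replicate 4 (-0.51) or IZ replicate 9 (-0.53). The genes most like Sema3c were Vangl1 (r = 0.79), Il2 (0.76) and Phactr2 (0.75). Il2 had mean levels of 12.2 CPM in sham and 20.2 CPM in the IZ although no T cell marker passed the filter, and the origin of its counts was not tested.

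Sema3a, the ligand known for the repulsion of sympathetic axons in the ventricular wall, was near the limit of detection. It had 0 to 8 counts in a sham library and 0 to 12 in an IZ library, 66 counts over all 17. It was at 0 in sham replicate 1, where 3 counts allow a level of up to 1.64 CPM, and in IZ replicates 1 and 5. Levels were 1.40 ± 1.01 CPM (SD, n = 8) in sham and 1.28 ± 0.79 CPM (SD, n = 9) in the IZ, and the groups overlapped. Fitted without the filter, the log2 fold change was -0.06 ± 0.56 (SE), so that a change of either sign was not detectable at this depth. Its last 3' bases match Gm43431 at 99% over 104 bases, and counts could have been shared with that feature.

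The shares of the 6 ligands show the same shift without any scaling, since each library is its own reference. The 6 together gave 101 to 161 counts in a sham library and 114 to 484 in an IZ library, or 78.1 ± 10.3 CPM (SD, n = 8) and 64.0 ± 13.4 CPM (SD, n = 9). Sema3b fell from 45.2 ± 10.4% to 26.4 ± 5.07% of ligand counts (exact permutation p = 0.000329, adjusted p = 0.000724), with 8 of 9 IZ libraries below all sham libraries. Sema3f rose from 16.7 ± 4.08% to 33.8 ± 5.87% (exact permutation p = 8.23e-05, the smallest that 24310 splits can give, adjusted p = 0.000302), with 9 of 9 IZ libraries above all sham libraries. Sema3d rose from 4.21 ± 2.22% to 12.9 ± 6.10% (exact permutation p = 0.000494, adjusted p = 0.000776), with 8 of 9 above. The shares must add up, so these are not independent of each other. For Sema3c (17.4% and 13.9%, exact permutation p = 0.133, adjusted p = 0.146), Sema3g (14.6% and 10.8%, exact p = 0.0558, adjusted p = 0.0767) and Sema3a (1.88% and 2.15%, exact p = 0.711) the difference did not pass the test. The ligand with the largest mean share was thus Sema3b in sham and Sema3f in the IZ.

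**Figure D3:**
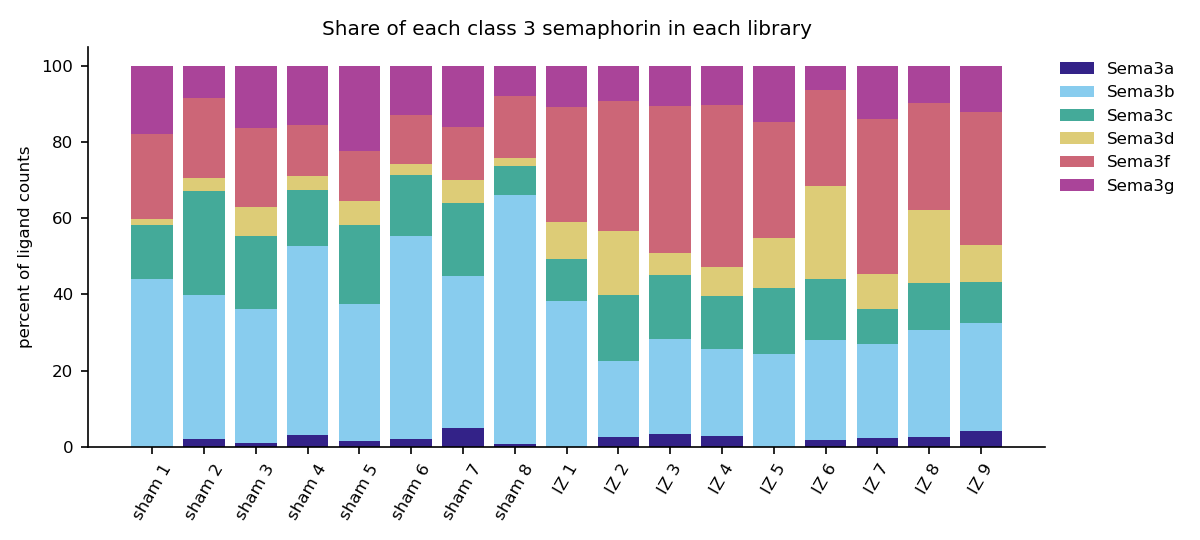
Stacked bars give the percent of the counts of the 6 class 3 semaphorins (y axis) that each took in each library (x axis, 8 sham and 9 IZ). The Sema3b segment shrinks from a mean of 45.2% to 26.4%, the Sema3f segment grows from 16.7% to 33.8%, and the Sema3b segment of IZ replicate 1, 38.1%, is the largest of the IZ.

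Of the receptors, Nrp2, a co-receptor for Sema3f and Sema3g and in lymphatic endothelium also for VEGF-C, was higher in the IZ. Sham libraries ran from 23.4 to 63.8 CPM with a median of 33.4, and IZ libraries from 61.2 to 81.0 CPM with a median of 71.0. A single sham library, replicate 2, lay within the IZ range, and without it the highest sham value was 40.0 CPM. The coefficient of variation was 36.7% in sham, 21.4% without replicate 2, and 9.70% in the IZ. The log2 fold change was 1.0 ± 0.15 (SE, adjusted p = 4e-06, edgeR). Its sister gene Nrp1, a receptor for Sema3a and VEGF-A, was at 151 ± 28.4 CPM (SD, n = 8) in sham and 140 ± 39.3 CPM (SD, n = 9) in the IZ, and was not called (log2 -0.11, adjusted p = 0.53, edgeR; with total counts alone 0.98, called). The log2 ratio of Nrp2 to Nrp1 counts went from -2.13 ± 0.32 to -0.95 ± 0.31, that is, 2.26-fold higher in the IZ (exact permutation p = 0.000165, adjusted p = 0.000452), with 8 of 9 IZ libraries above all sham libraries. Nrp1 was still the more abundant in every library.

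Markers of lymphatic endothelium, where Nrp2 is known, were read beside it. Of 5 tested, 3 were lower, Prox1 the lowest at log2 -2.81, and 1 was higher, Pdpn at log2 3.34. With total counts alone 1 was lower and 2 were higher. Their summed level was 77.6 to 127 CPM in sham and 64.1 to 95 CPM in the IZ. Prox1 is also made by cardiomyocytes and Pdpn by fibroblasts and mesothelium. Against the pan-endothelial sum Nrp2 was 2.51-fold higher in the IZ (log2 ratio -4.09 ± 0.39 and -2.76 ± 0.22, exact permutation p = 8.23e-05, adjusted p = 0.000302), in 9 of 9 IZ libraries above all sham libraries. The summed macrophage markers were 209 to 276 CPM in sham and 1157 to 2025 CPM in the IZ, and the summed fibroblast markers 1541 to 2981 CPM and 12685 to 20695 CPM. The part of these cells in the Nrp2 difference was not tested. The genes most like Nrp2 were Marcks (r = 0.83), Ppp4r1l-ps (0.79) and Tmem185b (0.78).

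Plxna1 and Plxna2, both signalling partners of the neuropilins, went in opposite directions. Plxna1 had 8.14 to 19.0 CPM in sham with a median of 13.3, and 21.0 to 43.9 CPM in the IZ with a median of 36.3. Every IZ library was above every sham library, and the lowest IZ value again belonged to replicate 1, next to 32.3 CPM in the following library. The log2 fold change was 1.36 ± 0.16 (SE, adjusted p = 1.1e-07, edgeR). Plxna2, the A-type plexin known from the cardiac neural crest, had 19.8 to 35.6 CPM in sham with a median of 29.2, and 11.4 to 23.6 CPM in the IZ with a median of 14.5. All IZ libraries except replicate 6 lay below every sham library. The log2 fold change was -0.91 ± 0.16 (SE, adjusted p = 1.7e-05, edgeR).

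Within a library, the log2 ratio of Plxna1 to Plxna2 counts was -1.07 ± 0.45 (SD, n = 8) in sham and 1.20 ± 0.47 (SD, n = 9) in the IZ. Plxna2 was the more abundant in all 8 sham libraries and Plxna1 in all 9 IZ libraries. The ratio was 4.84-fold higher in the IZ (exact permutation p = 8.23e-05, the smallest possible, adjusted p = 0.000302), and it does not depend on library scaling. Both genes were chosen with earlier results of these data known, and edgeR had called them in opposite directions from the same counts. The p-value of the ratio is therefore not separate support for those calls. The genes most like Plxna1 were Cd109 (r = 0.84), Eif3m (0.81) and Itm2b (0.79), and those most like Plxna2 were Pkd2 (0.82), Arnt (0.82) and Plac9a (0.80).

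Plxnd1, the plexin of endothelial cells that also binds Sema3e without a neuropilin, was the most abundant of the 10 genes in both groups. It ran from 54.6 to 126 CPM in sham with a median of 80.6, and from 72.5 to 145 CPM in the IZ with a median of 112. The sham libraries fell widely apart, with replicates 3, 4, 5 and 7 at 54.6 to 63.9 CPM and the others at 97.2 to 126 CPM, and only 2 IZ libraries exceeded them all. The means were 84.8 ± 27.4 CPM (SD, n = 8) and 111 ± 24.5 CPM (SD, n = 9), and the log2 fold change of 0.39 ± 0.18 (SE) missed the threshold (adjusted p = 0.053, edgeR). It passed with total counts alone (Plxnd1 log2 1.46, adjusted p = 1.5e-07, edgeR), with upper quartile scaling (0.50), without a filter (0.45), with a minimum mean of 50 counts (0.41) and without any 1 of sham replicates 1, 2 and 6 and IZ replicates 2, 5 and 9 (0.42 to 0.48). Relative to the pan-endothelial markers Plxnd1 was 1.61-fold higher in the IZ (log2 ratio -2.84 ± 0.36 and -2.15 ± 0.22, exact permutation p = 0.000411, adjusted p = 0.000754), with 5 of 9 IZ libraries above all sham libraries. The genes most like Plxnd1 were Gpatch2 (r = 0.84), Myct1 (0.81) and Hdac6 (0.79). Myct1 is known from endothelium, but between the groups it had a log2 fold change of -0.75, opposite in sign to that of Plxnd1.

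**Figure D4:**
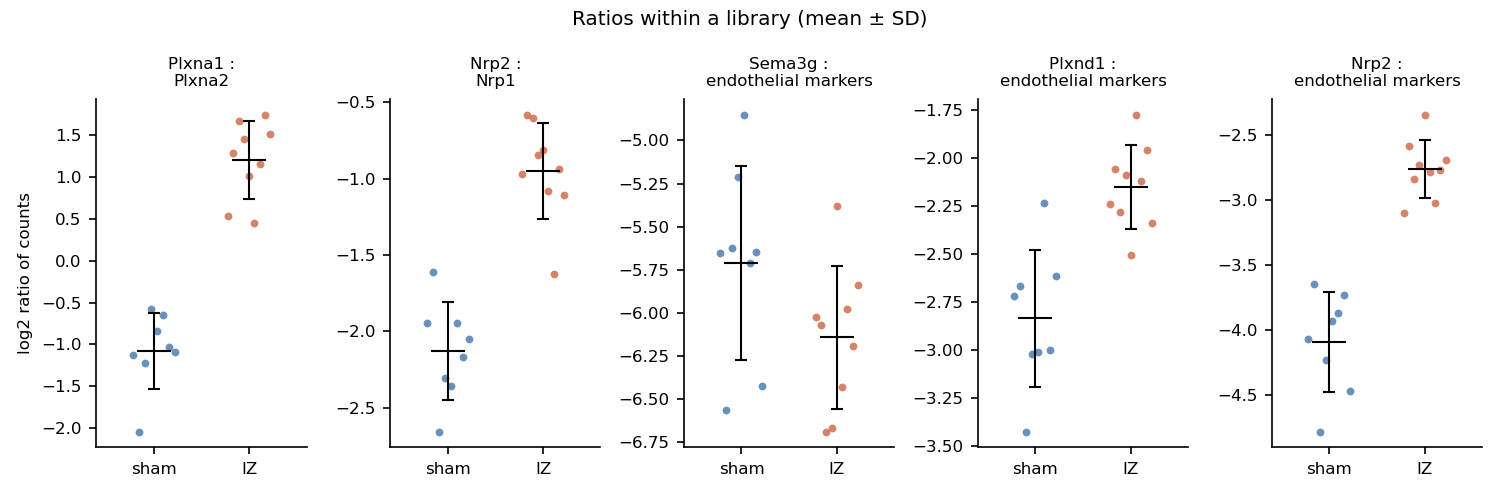
Log2 ratios of counts within each library (y axis, its own range in each panel) for Plxna1 to Plxna2, Nrp2 to Nrp1, and Sema3g, Plxnd1 and Nrp2 to the sum of 8 endothelial markers, 1 point per library (8 sham, 9 IZ) with mean and SD in black. The groups are apart for Plxna1 to Plxna2 (means -1.07 and 1.20) and for Nrp2 to the endothelial sum (-4.09 and -2.76), and overlap in the other panels.

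The order of the levels changed with the groups. In sham, Plxnd1 led, Nrp2, Sema3b and Plxna2 followed and their means lay within the larger SD of each neighbour, then came Plxna1, Sema3c, Sema3f and Sema3g, again within the SD, and below them Sema3d and Sema3a. In the IZ, Plxnd1, Nrp2 and Plxna1 were each apart from the next by more than the larger SD, then followed Sema3f, Sema3b and Plxna2, which were not, then Sema3c, Sema3d and Sema3g, which were not, and Sema3a last. Thus all ligands but Sema3f and Sema3b came after the 4 receptors in the IZ. Within the groups, deviations of log2 CPM over the 17 libraries were most alike for Sema3c and Plxna2 (r = 0.56) and for Nrp2 and Plxnd1 (0.52), and most opposed for Plxna1 and Plxnd1 (-0.64) and for Nrp2 and Plxna1 (-0.60), as a description of libraries that share depth and composition.

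The rest of the system was read from lists of its genes. Sema3e, the remaining class 3 ligand, had a maximum of 1 count among sham libraries and of 5 among IZ libraries and was not tested. For Plxna3, which missed the filter, the sham libraries had at most 3 counts and the IZ libraries up to 32. This makes its mean level in the IZ at least 1.4-fold higher than 3 counts per sham library would be. Fitted without the filter, and on few counts, Plxna3 came to log2 3.03 ± 0.70 (SE, adjusted p = 0.00042, edgeR), with 8 of 9 IZ libraries above every sham library. Plxna4, which serves Sema3a signalling in neurons, was called higher in the IZ (log2 0.45, adjusted p = 0.036, edgeR). Without any 1 of sham replicates 1, 5 and 8 and IZ replicates 5, 6 and 7 the call was lost (Plxna4 log2 0.36 to 0.41), as it was after thinning to equal depth (0.46). All 3 tested B- and C-type plexins were called, in a comparison in which 69.5% of all tested genes were. Plxnc1, a receptor for Sema7a on leukocytes, rose from 2.21 ± 1.01 to 19.9 ± 5.27 CPM (SD, n = 8 and 9; log2 3.11). Plxnb2 rose from 84.1 ± 15.1 to 165 ± 18.2 CPM (log2 0.97), and Plxnb1, a receptor for Sema4d, fell from 24.5 ± 4.90 to 9.17 ± 1.93 CPM (log2 -1.45; with total counts alone -0.36, not called). Plxnc1 and Plxnb2 rose in libraries in which all 7 tested macrophage markers were higher as well, and the part of these cells was not tested.

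Of 10 tested semaphorins of other classes, 2 were higher, 1 was lower and 7 were not called (30% called, against 69.5% of all tested genes). Sema4d, a membrane semaphorin of lymphocytes and other leukocytes, rose from 3.54 ± 1.53 to 23.6 ± 4.88 CPM (log2 2.68), and Sema4a, also known from immune cells, from 2.32 ± 1.32 to 4.92 ± 1.17 CPM (log2 1.15). Sema6a fell from 25.9 ± 8.10 to 11.7 ± 2.62 CPM (log2 -1.10; with total counts alone -0.034, not called). Sema7a came to log2 0.35 (adjusted p = 0.055, edgeR), and Sema4b, Sema4c, Sema5a, Sema6b, Sema6c and Sema6d were not called either, while Sema4f, Sema4g and Sema5b did not pass the filter. The median log2 fold change of the list was 0.022, and with total counts alone 8 of the 10 were called higher.

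**Figure D5:**
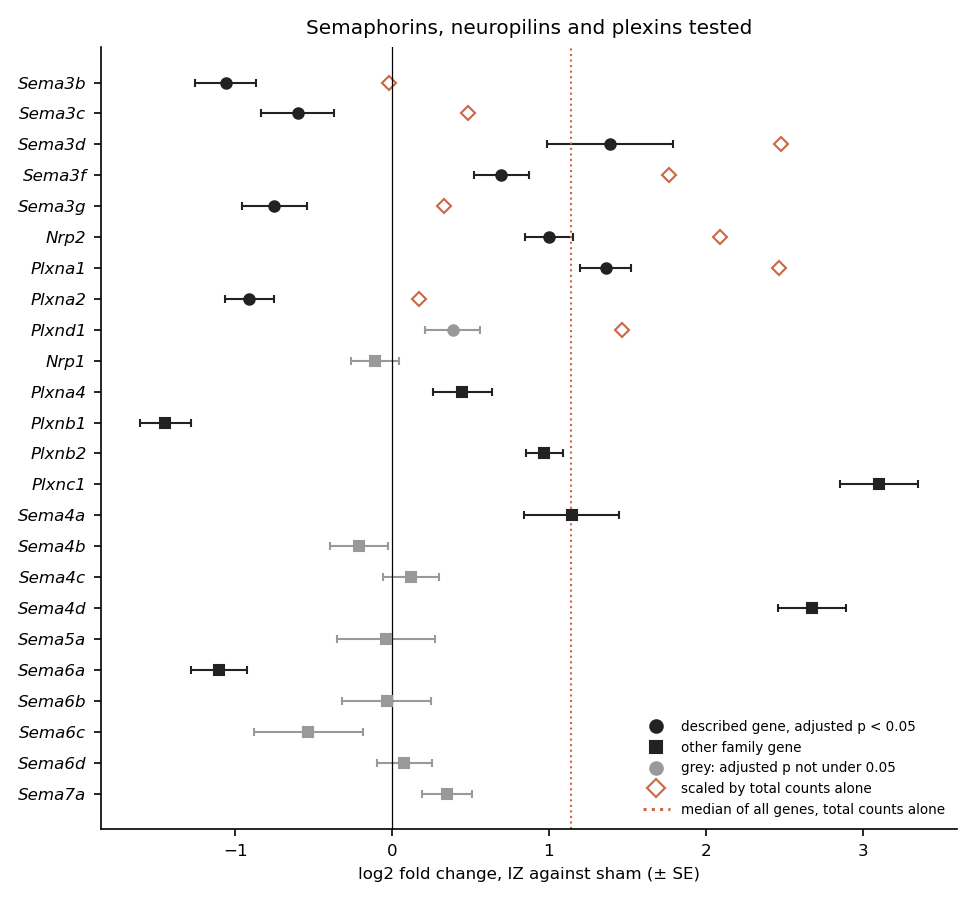
Log2 fold change of IZ against sham (x axis) with its SE for the 9 tested genes (circles) and the 15 other tested semaphorins, neuropilins and plexins (squares), black where the adjusted p was under 0.05 by edgeR and grey otherwise, and the 9 genes again with total counts alone (open diamonds), whose median over all genes is the dotted line. Sema3b, Sema3c, Sema3g and Plxna2 lie left of 0 with the scaled libraries, and the last 3 right of it with total counts alone, where all 4 lie left of the median gene.

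Downstream of the plexins, 15 of 29 tested signalling genes were higher and 7 were lower (median log2 0.45), 75.9% called against 69.5% of all tested genes. The highest was Pak1, a kinase activated by Rac (log2 2.91), and the lowest Cfl2, the cofilin of muscle (log2 -1.72). With total counts alone 24 were higher and 2 lower. Of 6 listed proprotein convertases and other proteases, some of which process class 3 semaphorins or their matrix-bound form, 2 were higher and 1 was lower. Mmp14, a membrane-bound matrix metalloproteinase, was the highest (log2 3.54) and Pcsk6 the lowest (log2 -0.81, but 0.24 and not called with total counts alone). Furin, which cleaves these ligands during secretion, was at log2 0.28. Of 4 tested co-receptors and adhesion partners of the neuropilins, 1 was higher, Itgb1 with log2 0.94, and 2 were lower, the lowest being the VEGF receptor gene Flt1 with log2 -1.90. Markers of nerves and their glia were few, with 3 of 8 tested, of which Uchl1 was the highest (log2 2.04). Mural cell markers ran from Abcc9 (log2 -2.72) to Pdgfrb (log2 0.96), with 4 of 8 lower and 1 higher (2 lower and 4 higher with total counts alone), and no T cell marker passed the filter. Of the proteases 50% were called, of the co-receptors and adhesion partners 75% and of the mural markers 62.5%, against the same 69.5%.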

How the data were processed

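RNA of 17 mouse hearts was read as 3' ends with molecular identifiers. The deposited values are raw counts per gene, made by the authors with Cutadapt 4.6, mapping to mm10 and HTSeq, as the submitters' processing notes and the study's methods list them. The release of the annotation is not given in the sources used here. Of 31647 features, 31521 matched GENCODE symbols, and 35 were merged groups of overlapping genes (0.152% of counts), kept for library sizes. Gm43130, Gm42676 and Gm42675 overlap Sema3a on its strand, and other small features overlap Sema3d, Nrp2 and Plxna2, with 7 to 22 counts in all for each gene. No pair of libraries was a copy (chi-square per degree of freedom 2.41 to 252).

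All genes were tested together with edgeR 4.0.16 in R 4.3.3: filterByExpr with a minimum of 10 counts, TMM scaling, two-sided quasi-likelihood test without covariates, Benjamini-Hochberg adjustment, threshold 0.05. Shares and log2 ratios (0.5 added to counts) were tested by exact permutation over 24310 splits, adjusted over 11 values. These values use the same counts as the edgeR test, for genes chosen with earlier results known, so their p-values are not separate support. On simulated data, 200 genes were changed by 1 on the log2 scale, equally often up and down. Of those that passed the filter, 79.3% were recovered, and 2.07% of calls were unchanged genes. In the real comparison 69.5% of tested genes were called, so this simulation does not check the library scaling. Alternatives were DESeq2 1.42.0, upper quartile scaling, total counts alone, no filter, a minimum mean of 50 counts, thinning to 1237675 counts, a replicate block and leaving out each library.

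The genes and lists were chosen with earlier results of these data known. Named were the 10 genes, all tested genes of their families, the highest and the lowest of each other list, and the 3 genes most alike (mean of at least 10 CPM) for those of the 10 with a mean of at least 20 counts. The result of 1 gene that met this rule is not reported here. Near-identical 3' ends were sought with BLAST. Python 3.11.15, NumPy 2.4.6, pandas 2.3.3, SciPy 1.17.1 and Matplotlib 3.10.9 were used. Floors and detection limits cover counting error only.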

Additional observations from a re-analysis of the deposited data

Results flagged for a closer look

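In 7 of 42 groups of values examined, the highest or lowest library was farther from its neighbour than Dixon's 95% critical value for the group's size allows. Chance alone gives about 1 in 20 groups. Sham replicate 2 accounted for 3 of them, with 26.5 CPM of Sema3c (next library 15.8), 63.8 CPM of Nrp2 (next 40.0) and a log2 ratio of Plxna1 to Plxna2 of -2.04 (next -1.22). IZ replicate 1 accounted for 2, with the lowest Plxna1, 21.0 CPM (next 32.3), and the highest share of Sema3b among ligand counts, 38.1% (next 28.3%). Sema3d reached 21.1 CPM in IZ replicate 6 (next 11.4). The log2 ratio of Nrp2 to Nrp1 was -1.62 in IZ replicate 7 (next -1.11).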

How the results depend on the processing

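Sema3d, Sema3f, Nrp2 and Plxna1 stayed higher and past the threshold under every alternative that gave a value, and Sema3d gave none after thinning or at a minimum mean of 50 counts, where it missed the filter. With total counts alone, 9203 genes were called higher and 1524 lower, with 5 of the 10 genes called and 0 lower. Sema3b came to -0.017, Sema3c to 0.48, Sema3g to 0.33, Plxna2 to 0.17 and Plxnd1 to 1.46, and the lists had 2 (other class 3 genes), 8 (other semaphorins) and 5 (proteases) calls. Upper quartile scaling moved the median gene by 0.11 and gave Sema3c -0.49 (not called), Plxnd1 0.50 (called) and 5 proteases. A minimum mean of 50 counts left 5239 calls (2747 higher, 2492 lower), 2 of the 10 genes lower, 1 plexin of types B and C, 1 other semaphorin, and Plxnd1 called at 0.41. Fewer genes are tested in that setting. Without a filter Sema3c was -0.54 (not called), Plxnd1 0.45 (called), and the lists had 2 and 5 calls. DESeq2 gave 2 calls for the other class 3 genes. After thinning that list had 0, Sema3c was -0.41 (not called), and the changes in share were -4.71 percentage points for Sema3g (called) and -0.41 for Sema3a, whose sign turned. By medians the share of Sema3g changed by -5.33 (called).

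Same-numbered libraries of the groups had correlations of -0.31 to 0.20, 1 of 8 over 0.1 and 1 of 8 the best with its own number, so the numbers do not pair them. With the replicate block Plxnd1 was called at 0.49.

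Leaving out each library in turn gave -0.72 to -0.42 for Sema3c, 0.31 to 0.48 for Plxnd1 (called without IZ replicates 2, 5 or 9 or sham replicates 1, 2 or 6), 0 to 1 calls for the other class 3 genes, -4.78 to -2.72 points for the share of Sema3g, -4.86 to -2.09 for that of Sema3c and -0.55 to -0.31 for the log2 ratio of Sema3g to endothelial markers. The share of Sema3g and this ratio passed the test without sham replicates 2 or 8 or IZ replicate 5, and the share of Sema3c without sham replicate 8. The cause of these changes was not tested. Sema3a, with 66 counts, had no value under most settings.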
